A study of Macaca mulatta with 5 samples.

Results

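The peaks described here are 11816 places on rhesus monkey (Macaca mulatta) autosomes that were called as enriched for methylated DNA in embryonic stem cells, labelled rESC, and had no called counterpart nearby in cells labelled R_NSCP1. They were chosen from the deposited rESC peak list by 4 conditions. A peak had to lie on chromosomes 1 to 18 or 20, to be shorter than 1000 bp, to have its midpoint more than 5 Mb from either end of the chromosome, and to have no R_NSCP1 peak within 500 bp. They made up 33.8% (95% Wilson interval 33.3% to 34.3%) of the 35004 interior autosomal rESC peaks under 1000 bp, and 24.2% of all 48838 rESC peaks. The other 23188 interior rESC peaks had an R_NSCP1 peak within 500 bp and are called shared below. The peak calls themselves chose the members, so the values that follow are a description and carry no test.

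The assay was MeDIP-seq. Here an antibody against 5-methylcytosine captures sheared DNA fragments, which are then sequenced. The study asked about DNA methylation and noncoding RNA during the neural fate choice of embryonic stem cells. For each cell type there was a single MeDIP library and a single library of long noncoding RNA (lncRNA); a mixed MeDIP input was not analysed here. The labels give the cell type of both as embryonic stem cell, give no treatment, passage or number of animals, and do not spell out R_NSCP1; the files used here carry no gene names, so the labels could not be checked against marker genes. With 1 library per group there is no replicate spread, and intervals below cover counting error and nothing else. MeDIP depth was close, at 8690541 tags in rESC and 9071243 in R_NSCP1, a ratio of 1.04.

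In mammalian genomes DNA methylation sits mainly on cytosines that are followed by guanine, and it is kept through cell division by maintenance methyltransferases. Most such sites are methylated in pluripotent cells, while many promoters in dense clusters of these sites are not. During differentiation, methylation changes chiefly at regulatory regions outside those clusters. MeDIP enriches fragments that carry several methylated sites together, so a peak reflects both the methylation of a place and the local density of such sites. The peaks here were called without a control, so they were not corrected for the coverage of input DNA. In a mixed population of cells, a low peak cannot tell methylation in few cells from sparse methylation in all of them.

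The rESC-only peaks were low and short. Pileup, the number of sequenced fragments stacked at the peak as the peak caller reported it, had a median of 10 in these peaks, with quartiles of 8 and 12. In shared interior rESC peaks the median was 13, with quartiles of 11 and 18. A pileup of 10 or fewer was found in 62.7% (61.8% to 63.6%) of the rESC-only peaks and in 24.98% (24.4% to 25.5%) of the shared ones. At the upper end, 159 rESC-only peaks (1.35%) and 4729 shared peaks (20.4%) had a pileup of 20 or more. The median length was 257 bp against 301 bp. Of the rESC-only peaks, 4885 (41.3%, 40.5% to 42.2%) were exactly 249 bp long, the fragment length that the caller used for this library and the shortest peak it listed, against 16.4% (15.96% to 16.9%) of shared peaks. Across the 11816 peaks, pileup and length rose together weakly (Spearman rho 0.34, a description over peaks of 1 library).

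The share of interior rESC peaks that lacked an R_NSCP1 partner fell with pileup at every step examined. It was 69.0% (63.6% to 73.9%) of 303 peaks with a pileup of 5 or 6, 55.8% (54.3% to 57.3%) of 4400 peaks with a pileup of 9, 27.1% (26.1% to 28.1%) of 7559 peaks with 12 to 14, and 4.95% (4.24% to 5.78%) of 3050 peaks with 20 to 29. Among the 1838 interior peaks with a pileup of 30 or more, 8 lacked a partner, or 0.435% (0.221% to 0.857%). Over the whole rESC list, without regard to position or length, 30.3% of peaks had no R_NSCP1 peak within 500 bp. No interior rESC peak of 1000 bp or longer was without an R_NSCP1 peak within 500 bp, out of 141, so the length condition removed none that met the others.

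**Figure D1:**
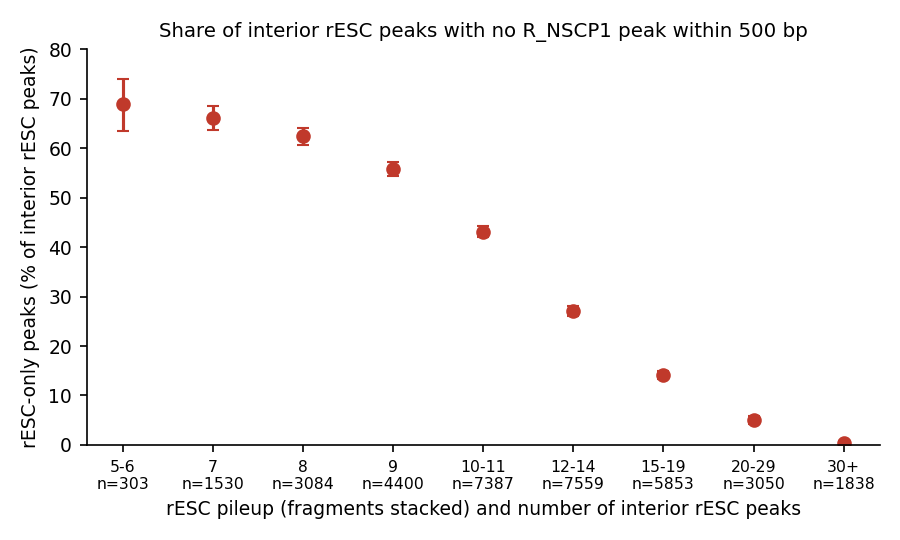
Percentage of interior autosomal rESC peaks with no R_NSCP1 peak within 500 bp (vertical axis), by rESC pileup in fragments (horizontal axis, with the number of interior rESC peaks in each step). Points are shares and bars are 95% Wilson intervals; the share runs from 69.0% at a pileup of 5 or 6 to 0.435% at 30 or more.

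The peaks found in R_NSCP1 only were the closest counterpart. They were chosen by the same conditions with the lists exchanged and numbered 37902 of 61499 interior R_NSCP1 peaks, a share of 61.6% (61.2% to 62.0%) and 3.21 for each rESC-only peak. The whole R_NSCP1 list is the longer one, with 83528 peaks against 48838. Held to its 48838 strongest peaks by −log10 q, it gave 16163 R_NSCP1-only and 16972 rESC-only peaks, a ratio of 0.952. For window counts this setting was added after the data were seen. Lists of equal length bring the peak numbers close by construction. The cut dropped R_NSCP1 peaks that the caller had listed. The 16972 therefore include rESC peaks with a listed R_NSCP1 peak within 500 bp. In the lists as deposited, R_NSCP1-only peaks had a median length of 256 bp and a median fold enrichment of 5.84. These lay near the 257 bp and 5.80 of the rESC-only peaks. The R_NSCP1-only peaks were low as well, with a median pileup of 11, quartiles of 9 and 14, and 47.1% (46.6% to 47.6%) at 10 or fewer. In the upper tail, 5.28% (5.06% to 5.51%) had a pileup of 20 or more, against 1.35% (1.15% to 1.57%) of the rESC-only peaks. A −log10 q (the caller's adjusted p-value on a negative log scale) of at least 10 was reached by 13.5% of the R_NSCP1-only and by 3.55% of the rESC-only peaks. Pileup is not scaled between libraries, so these levels are given side by side and not as a difference. Both lists reached down to a pileup of 5. An rESC-only peak therefore marks a place without an R_NSCP1 call, and R_NSCP1 coverage at these places was not analysed here.

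Fold enrichment, the pileup over the background that the caller assumed at the peak with 1 added to both, ran from 2.82 to 17.9 with a median of 5.80. The values lay on a ladder. For 5537 rESC-only peaks (46.9%, 46.0% to 47.8%) the fold matched, within 0.1%, the value given by a background of 0.721 fragments, which is the genome-wide average computed from the tags, fragment length and genome size in the file header. At that background each pileup has 1 fold value: 4.65 at a pileup of 7 (896 peaks), 5.23 at 8 (1465 peaks), 5.81 at 9 (1633 peaks) and 6.39 at 10 (766 peaks). The other 6279 peaks lay below this ladder, over a higher implied background. Among shared peaks 21.4% (20.9% to 22.0%) stood on the genome-wide background, and among R_NSCP1-only peaks 36.7% (36.2% to 37.2%). The background implied by pileup and fold had a median of 0.747 fragments in the rESC-only peaks and 1.12 in the shared ones.

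**Figure D2:**
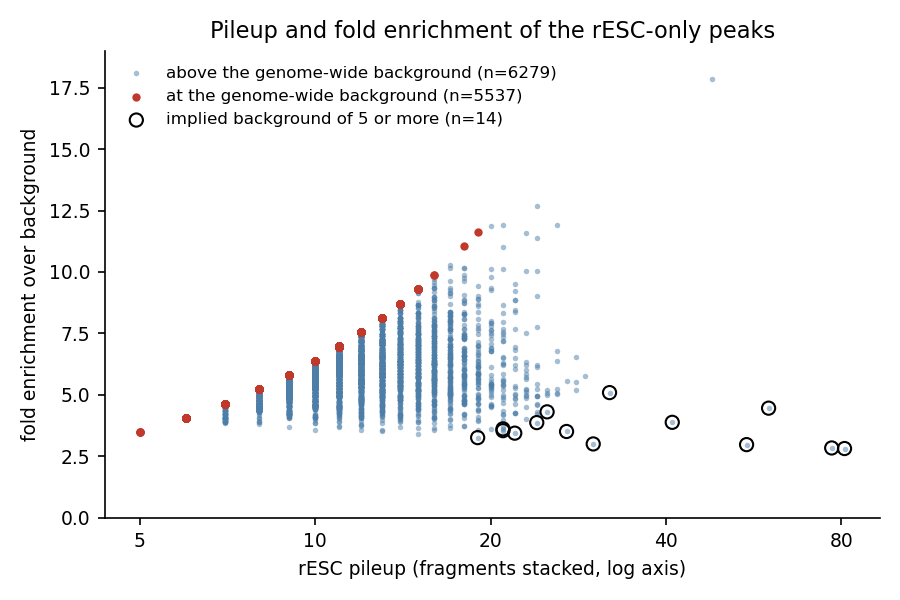
Pileup (horizontal log axis, fragments) against fold enrichment (vertical axis) for all 11816 rESC-only peaks. The 5537 red points stand on the genome-wide background of 0.721 fragments and form the upper edge, blue points had a higher local background, and black circles mark the 14 peaks with an implied background of 5 or more.

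A handful of rESC-only peaks stood well above the rest. At chr14:125170576-125170873, a peak of 298 bp had a pileup of 48, a fold enrichment of 17.9 and a −log10 q of 47.3, and the nearest R_NSCP1 peak was 33919 bp away. The next highest values were a fold of 12.7 and a −log10 q of 22.2. Both belonged to a peak at chr4:144364922-144365238 with a pileup of 24 and an R_NSCP1 peak 3723 bp away. Another 2 peaks passed a −log10 q of 20, one at chr8:25821307-25821628 (pileup 26, fold 11.9) and one at chr7:25532973-25533356 (pileup 24, fold 11.4). Their nearest R_NSCP1 peaks lay 36817 and 53308 bp away. The peaks ranked 3 and 5 by fold lay at chr13:37209963-37210344 (pileup 21, fold 11.9) and at chr11:9795893-9796179 (pileup 20, fold 11.9).

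The highest pileups belonged to peaks of another kind, with low fold and a high background. Of the 5 highest, 4 had a fold between 2.82 and 4.46. The highest was at chr3:33104068-33104348, with a pileup of 81 over an implied background of 28.1 fragments. Next, at chr3:33092981-33093428, was a peak with a pileup of 77 over 26.4. After these came chr8:7922608-7922873 (pileup 60, background 12.7) and chr8:110639580-110640060 (pileup 55, background 17.8).

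Altogether 14 rESC-only peaks had an implied background of 5 or more, a limit set after the values were seen. An R_NSCP1 peak lay within 5000 bp of 13 of these 14, against 1971 (16.7%) of all 11816. The 200 kb stretch at chr3:33000001-33200000, also singled out after the values were seen, held 3 rESC-only peaks with pileups of 41 to 81. The same stretch held 28 shared rESC peaks with a median pileup of 119.5 and 29 R_NSCP1 peaks with a median pileup of 122, all with an rESC peak within 500 bp. It held no R_NSCP1-only peak. These rESC-only peaks thus lay in a stretch that was high in both libraries, below its median pileup. What raised the background there was not tested.

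The longest rESC-only peak spanned 752 bp at chr1:143457135-143457886, with a pileup of 17. Next came peaks of 731 bp at chr13:71816510-71817240, 710 bp at chr3:39881028-39881737, 688 bp at chr6:42184208-42184895 and 656 bp at chr9:124313910-124314565. Their pileups were 21, 24, 14 and 25. The longest peaks were thus all well short of the 1000 bp limit and had moderate fold enrichments of 4.31 to 6.81.

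Most rESC-only peaks were far from any R_NSCP1 peak on the scale of the peaks themselves. The median distance was 14170 bp, with quartiles of 6714 and 29627 bp. Only 328 (2.78%) lay 501 to 1000 bp from an R_NSCP1 peak, 487 (4.12%) between 1000 and 2000 bp, and 1156 (9.78%) between 2000 and 5000 bp. A further 2504 (21.2%) lay at 5000 to 10000 bp, 6055 (51.2%) at 10000 to 50000 bp, 1057 (8.95%) at 50000 to 100000 bp and 229 (1.94%) beyond. R_NSCP1-only peaks were farther from the nearest rESC peak, with a median of 21950 bp. The rESC list is the shorter one, and the part of list length in this distance was not tested. The R_NSCP1 peak nearest to an rESC-only peak itself had an rESC peak within 500 bp in 34.5% (33.7% to 35.4%) of cases, against 38.4% (38.0% to 38.8%) of all interior R_NSCP1 peaks. For the 815 rESC-only peaks with an R_NSCP1 peak at up to 2000 bp, this share was 26.4% (23.5% to 29.5%).

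The limit of 500 bp cut through few peaks. Interior rESC peaks that overlapped an R_NSCP1 peak numbered 22576, and 612 more had one at 1 to 500 bp. Just inside the rESC-only set were peaks 501 bp from an R_NSCP1 peak at chr17:24521046-24521294 (pileup 7) and at chr6:73354812-73355060 (pileup 10), and 502 bp from one at chr11:115183239-115183487 (pileup 15). Just outside were peaks 500 bp away at chr5:87014208-87014479 (pileup 11), 499 bp away at chr3:82399089-82399391 (pileup 17) and 497 bp away at chr18:57400400-57400694 (pileup 27). At the limit set by the chromosome ends, the outermost midpoint kept lay 5000912 bp from an end and the innermost one left out 4995508 bp.

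The 5 peaks most remote from R_NSCP1 calls had pileups a little below the median of 10 over all rESC-only peaks. The 5 farthest lay 243870 to 261866 bp from an R_NSCP1 peak, had pileups of 7 to 9 and stood on the genome-wide background. The farthest was at chr14:82123260-82123508, with a pileup of 9. The others lay at chr4:59774564-59774845, at chr5:125510186-125510474, at chr1:178976977-178977225 and at chr14:100530852-100531100. Over all rESC-only peaks, distance and pileup were weakly and inversely related across peaks (Spearman rho -0.25), and distance and fold were nearly unrelated (rho 0.05). Peaks at 501 to 1000 bp had a median pileup of 12 and a median fold of 5.51. Peaks beyond 100000 bp had a median pileup of 9 and a median fold of 5.81. The 6055 peaks at 10000 to 50000 bp had the same medians of 9 and 5.81.

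Along the chromosomes, with the lists as deposited, the rESC-only peaks were spread more evenly than the other classes. This spread was not recomputed with the R_NSCP1 list held to the length of the rESC list. The interior of the 19 chromosomes measured 2477 Mb and held 4.77 rESC-only peaks per Mb, 9.36 shared rESC peaks per Mb and 15.3 R_NSCP1-only peaks per Mb. By chromosome, rESC-only density ran from 4.27 per Mb on chromosome 14 to 5.50 on chromosome 10. Shared density ran from 6.82 on chromosome 5 to 14.5 on chromosome 10, and R_NSCP1-only density from 11.5 to 22.3 on the same 2 chromosomes. The coefficient of variation over the 19 chromosomes was 7.12% for rESC-only, 17.6% for shared and 15.4% for R_NSCP1-only peaks. The rESC-only share of interior rESC peaks was accordingly lowest on chromosome 10, at 27.4% (25.4% to 29.6%), and highest on chromosome 12, at 39.95% (37.3% to 42.6%), followed by chromosome 5 at 39.1% (37.0% to 41.3%).

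In 2467 full windows of 1 Mb, the median number of rESC-only peaks was 5, with quartiles of 3 and 6 and a maximum of 15. Shared rESC peaks had a median of 8 and a maximum of 52, and R_NSCP1-only peaks a median of 14 and a maximum of 54. The variance over the mean was 1.29 for rESC-only peaks, 4.05 for shared and 4.06 for R_NSCP1-only peaks. Since this ratio grows with the mean, the excess of the variance over the mean was also divided by the squared mean, and stood at 0.0605, 0.327 and 0.201. Windows without an rESC-only peak numbered 75, of which 41 had no interior peak of either list, and 112 windows (4.54%) held 10 or more.

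**Figure D3:**
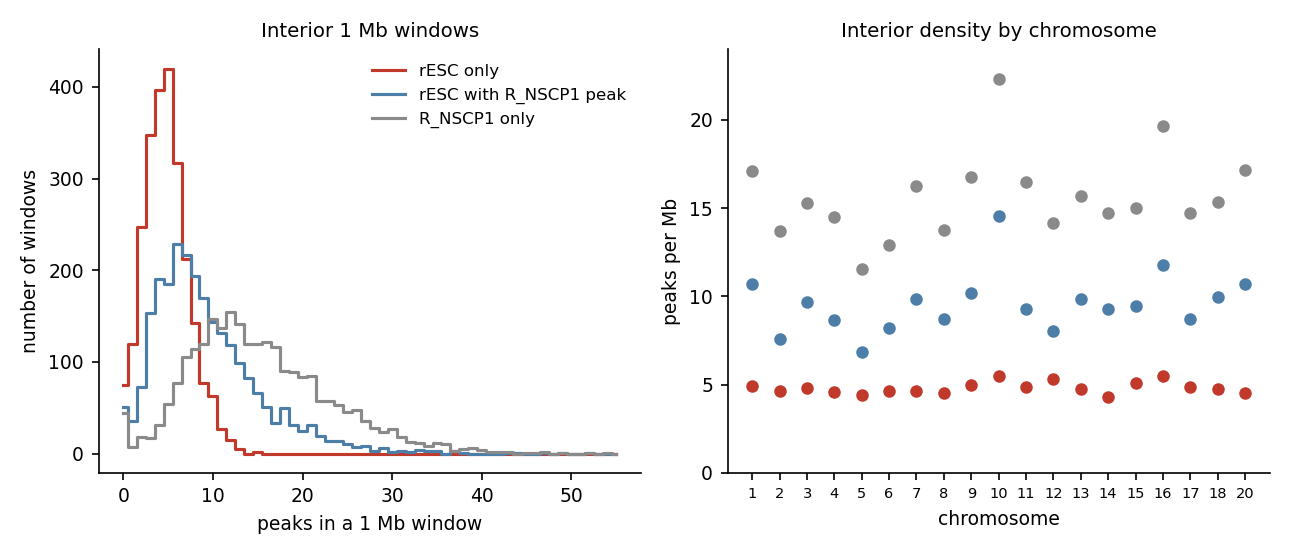
Left, number of interior 1 Mb windows (vertical axis) by the number of peaks they hold (horizontal axis) for rESC-only peaks (red), rESC peaks with an R_NSCP1 peak within 500 bp (blue) and R_NSCP1-only peaks (grey). Right, peaks per Mb of interior for each of the 19 chromosomes in the same colours; red points stay between 4.27 and 5.50 while blue points run from 6.82 to 14.5.

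Windows rich in shared peaks held only moderately more rESC-only peaks. In 160 windows with 0 to 2 shared peaks the mean number of rESC-only peaks was 2.51, in 640 windows with 6 to 8 it was 4.62, and in 138 windows with 21 to 52 it was 6.38. The mean number of R_NSCP1-only peaks in the same windows was 6.25, 12.9 and 27.4. The rESC-only share of interior rESC peaks therefore went from 68.8% in the first group of windows to 19.8% in the last, a share whose denominator includes the shared peaks that define the groups. Across the 2467 windows, rESC-only counts correlated with shared counts at a Pearson r of 0.31 (Spearman rho 0.30) and with R_NSCP1-only counts at 0.36 (0.34). Shared and R_NSCP1-only counts correlated at 0.66 (0.63). These are descriptions over windows that share 2 libraries and the base composition of their region. Small counts such as those of the rESC-only peaks lower a correlation. The 41 windows with no interior peak of either list enter these correlations. They also lie in the group with 0 to 2 shared peaks and lower its means.

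The same contrast appeared along the arms. At 5 to 10 Mb from a chromosome end there were 6.01 rESC-only, 17.1 shared and 24.03 R_NSCP1-only peaks per Mb. More than 40 Mb from an end there were 4.41, 7.81 and 13.02. The rESC-only share of interior rESC peaks rose from 26.0% (24.7% to 27.3%) to 36.1% (35.3% to 36.9%), with 32.4% at 10 to 20 Mb and 34.7% at 20 to 40 Mb in between.

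The windows with the most rESC-only peaks also held many other peaks. There were 2 windows with 15. The window at chr5:176000001-177000000 had 24 shared rESC and 26 R_NSCP1-only peaks beside them, and the window at chr3:40000001-41000000 had 37 and 47. Windows with 13 numbered 5, and the 3 in which rESC-only peaks made up the largest share of rESC peaks are given here. At chr16:13000001-14000000 the 13 stood beside 10 shared peaks, a share of 56.5%. At chr15:6000001-7000000 they stood beside 16 shared peaks, and at chr13:6000001-7000000 beside 17. Outside this rule, and chosen after its share was seen, the window at chr2:12000001-13000000 held 12 rESC-only, 2 shared and 12 R_NSCP1-only peaks.

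With the lists as deposited, rESC-only peaks outnumbered R_NSCP1-only peaks in 51 of the 2423 windows that held either, against 2326 with more R_NSCP1-only peaks and 46 with equal numbers. This count turned with the length of the R_NSCP1 list: held to its 48838 strongest peaks, rESC-only peaks were more numerous in 1326 of 2420 windows and R_NSCP1-only peaks in 875. Equal list lengths bring the totals close by construction, and rESC peaks whose R_NSCP1 partner was cut count as rESC-only there. The largest surpluses in the deposited lists, chosen after the counts were seen, were 9 rESC-only against 4 R_NSCP1-only peaks at chr8:123000001-124000000, and a tie of 9 against 5 at chr14:34000001-35000000 and 7 against 3 at chr15:67000001-68000000. At the other extreme, 4 windows held 10 or more shared peaks and no rESC-only peak. The window at chr10:82000001-83000000 had 32 shared rESC peaks, 31 R_NSCP1-only peaks and 0 rESC-only peaks.

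Neighbouring rESC-only peaks were seldom close together. The median gap between neighbours was 136711 bp, with quartiles of 58416 and 278815 bp. Gaps above 3 Mb numbered 9, against 7 between shared and 7 between R_NSCP1-only peaks. The median gap was 0.65 times the mean gap, against 0.54 times for shared peaks and 0.58 times for R_NSCP1-only peaks. These gaps skip peaks of other classes. The nearest other rESC peak of any kind lay at a median of 25737 bp, against 18839 bp for shared peaks. Chaining peaks at gaps of at most 10000 bp put 894 rESC-only peaks (7.57%, 7.10% to 8.06%) into 436 clusters, 414 of 2 peaks and 22 of 3, and no cluster held more. Among shared peaks 24.2% (23.7% to 24.8%) were in such clusters, at 9.36 shared peaks per Mb against 4.77. No cluster share was taken for R_NSCP1-only peaks, which stood at 15.3 per Mb. Of their 37883 gaps, 5833 were at most 10000 bp, against 458 of 11797 gaps between rESC-only peaks. Clustered and single rESC-only peaks had the same median pileup of 10, with median folds of 5.72 and 5.80.

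The 22 clusters of 3 were tied in size, and the 3 with the shortest span are named. The most compact covered 6259 bp at chr1:6072354-6078612, where the peaks had pileups of 16, 23 and 18 and the nearest R_NSCP1 peak was 14206 bp away. A cluster at chr10:24353275-24361340 had pileups of 11, 12 and 9, and R_NSCP1 peaks from 4583 bp away. At chr15:104579779-104588639 the pileups were 8, 13 and 11.

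Gaps between rESC-only peaks were sparse between 1 and 5 kb. Counted in steps of 1 kb, a division made after the spacing was seen, 54 gaps were under 1 kb, 24 between 1 and 2 kb, 9 between 2 and 3 kb, 15 between 3 and 4 kb and 23 between 4 and 5 kb. From 5 to 6 kb the number was 82, and from there to 20 kb it stayed between 49 and 75 per step. In rates, 1 to 5 kb held 17.8 gaps per kb, 5 to 10 kb 66.6 and 10 to 20 kb 56.4. Shared peaks showed the same step, with 149 gaps per kb at 1 to 5 kb and 313.6 at 5 to 10 kb. The distance from an rESC-only peak to the nearest other rESC peak of any kind also stepped up, from 151 peaks at 4 to 5 kb to 406 at 5 to 6 kb.

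**Figure D4:**
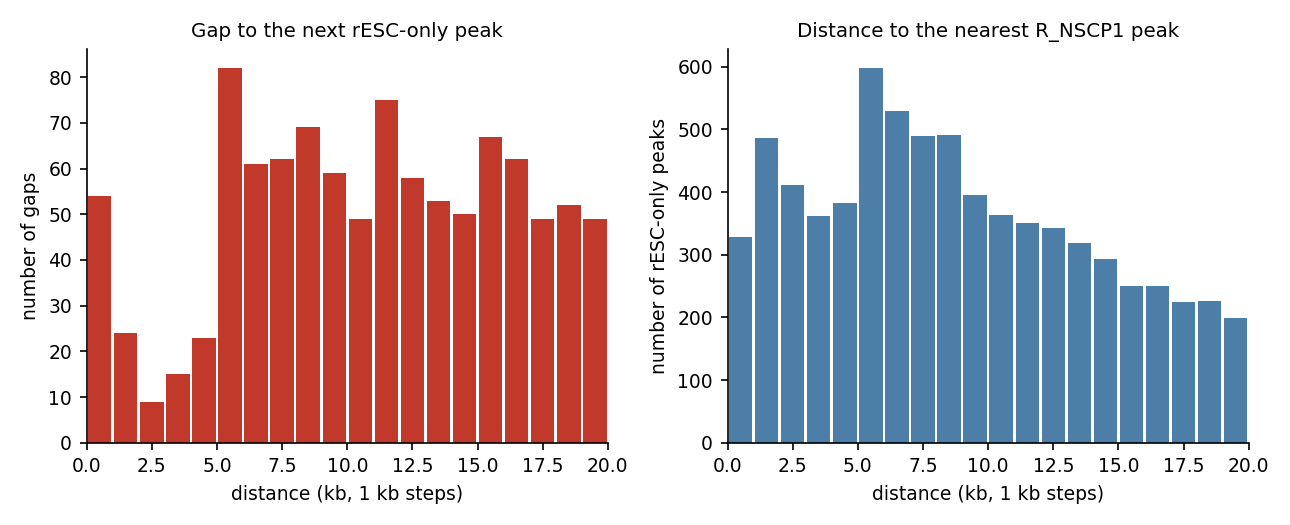
Number of gaps between neighbouring rESC-only peaks (left, red) and number of rESC-only peaks by distance to the nearest R_NSCP1 peak (right, blue), both in steps of 1 kb up to 20 kb. On the left the count goes from 23 at 4 to 5 kb to 82 at 5 to 6 kb, and on the right from 383 to 598; the first blue step covers only 501 to 1000 bp because nearer R_NSCP1 peaks exclude a peak from the set.

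The background used by the caller differed between bands of this distance, which were made after the spacing was seen. Finer steps were not taken for the background, so a gradual change cannot be told from a break at 5 kb. Per the file header, the regional background was taken over 10000 bp, or 5 kb to either side. Fragments of a neighbouring rESC peak inside that range enter it by construction. The implied background had a median of 1.42 fragments in the 515 rESC-only peaks with another rESC peak at 1 to 5 kb, 0.822 in the 1784 with one at 5 to 10 kb, and 0.722 in the 6898 with none within 20 kb. The median pileups at 1 to 5 kb and 5 to 10 kb were 13 and 10. The step was present against the R_NSCP1 list too, with 383 rESC-only peaks at 4 to 5 kb from an R_NSCP1 peak and 598 at 5 to 6 kb. The part of the regional background in this spacing was not tested.

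Few rESC-only peaks lay near a listed lncRNA start. Long noncoding RNAs are transcripts without a protein product, and methylation around the start of a transcript often goes with low transcription. The lncRNA table listed 1404 transcripts, of which 1009 with 951 distinct starts began within the interior studied here. The median distance from an rESC-only peak to the nearest start was 1211036 bp, against 1090197 bp for shared peaks and 1087046 bp for R_NSCP1-only peaks. A start lay within 10000 bp of 103 rESC-only peaks (0.872%, 0.719% to 1.06%), against 0.906% (0.792% to 1.04%) of shared and 0.847% (0.760% to 0.944%) of R_NSCP1-only peaks. Within 1000 bp the shares were 0.0762% (9 peaks, 0.0401% to 0.145%), 0.125% (0.0871% to 0.180%) and 0.0976% (0.0708% to 0.135%). The intervals overlap at both distances, which is no test and, with 9 rESC-only peaks within 1000 bp, does not show likeness. Of the 103 peaks, 45 had their midpoint upstream of the nearest start and 58 downstream, and they had a median pileup of 9. A lncRNA transcript, taken from start to end, was overlapped by 66 rESC-only peaks (0.559%, 0.439% to 0.710%). Among shared peaks the share was 0.608% (0.516% to 0.717%).

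The lncRNAs near rESC-only peaks were split between the cell types much as all lncRNAs were. All lncRNAs here include those that begin outside the interior, and no share for interior lncRNAs alone is given. In all, 118 lncRNAs with 113 distinct starts had an rESC-only peak at up to 10000 bp. Their FPKM (fragments per kilobase of transcript, scaled to library size) had a median of 2.71 in rESC, with quartiles of 0.937 and 6.08, and a median of 2.45 in R_NSCP1, with quartiles of 1.54 and 4.29. Differences of 2-fold or more, taken after adding 0.1 to each FPKM, were found in 81 (68.6%, 59.8% to 76.3%), against 65.4% of the 1395 lncRNAs that reached an FPKM of 0.1 in either library. Towards rESC there were 42 (35.6%, 27.5% to 44.6%), where 30.8% of all lncRNAs lay. Towards R_NSCP1 there were 39 (33.1%, 25.2% to 42.0%), where 34.7% of all lncRNAs lay. The other 37 lay within 2-fold. Several of the 118 overlap each other or share 1 rESC-only peak, so they are not independent, and the intervals do not cover this. The median log2 difference, R_NSCP1 minus rESC, was -0.19, against 0.09 over all lncRNAs. Fewer expressing cells and less RNA per cell cannot be told apart in such libraries.

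These counts were also taken by whether an R_NSCP1 peak was near. Of the 118 lncRNAs, 70 had no R_NSCP1 peak within 10000 bp of the start. Among them 24 (34.3%, 24.2% to 46.0%) differed by 2-fold or more towards rESC, and 25 (35.7%, 25.5% to 47.4%) towards R_NSCP1. Among the 48 with an R_NSCP1 peak as well, 18 (37.5%, 25.2% to 51.6%) did so towards rESC and 14 (29.2%, 18.2% to 43.2%) towards R_NSCP1. The median log2 differences were 0.08 and -0.33. With 70 and 48 lncRNAs the intervals are wide and do not cover shared peaks, and the difference between these groups was not tested.

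**Figure D5:**
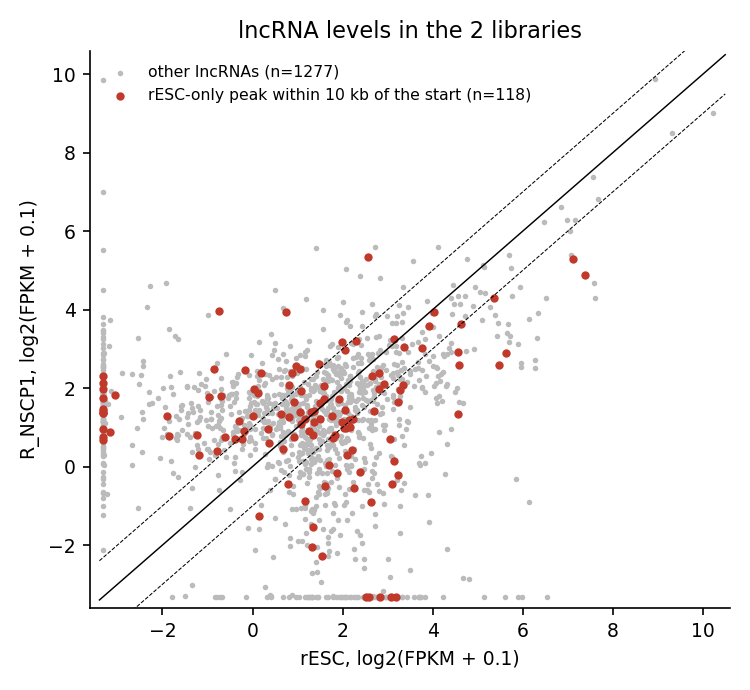
lncRNA levels in rESC (horizontal axis) and R_NSCP1 (vertical axis), both as log2(FPKM + 0.1), for the 118 lncRNAs with an rESC-only peak within 10000 bp of the start (red) and all others (grey). The solid line marks equal levels and dashed lines a 2-fold difference; 42 red points lie at least 2-fold towards rESC and 39 towards R_NSCP1, and points on the lower and left edges are listed at 0.

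At 9 places an rESC-only peak lay within 1000 bp of a start, touching 10 lncRNAs. Of these, 4 were higher in R_NSCP1 by 2-fold or more, 3 were higher in rESC by as much, and 3 differed by less. Over all lncRNAs the shares were 34.7% and 30.8%, so nothing is read from 4 and 3 of 10.

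Towards R_NSCP1, the lncRNA at chr3:30363737-30598944 (minus strand) had a listed FPKM of 0 for rESC and of 4.31 for R_NSCP1. Its rESC-only peak, from 30598365 to 30598613 with a pileup of 8, lay 331 bp downstream of the start, and an R_NSCP1 peak lay 831 bp from the start. The lncRNA at chr20:12082936-12105692 (minus strand) went from an FPKM of 0.798 (rESC) to 5.41 (R_NSCP1), which is 2.62 on the log2 scale, with a peak of pileup 10 from 12105225 to 12105473. On the plus strand of chromosome 1, a lncRNA from 192090539 to 192103371 stood at 3.88 and 8.92, with a peak of pileup 11 from 192091040 to 192091314. A longer transcript with the same start stood at 1.19 and 1.43. This start lay within 1 of the 22 clusters of 3 peaks, which spanned 192084598 to 192097445 with pileups of 11 to 14. The lncRNA at chr15:41202771-41218838 went from 0.783 to 1.78, with a peak from 41203626 to 41203884.

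Towards rESC, the lncRNA at chr16:7298360-7299307 (minus strand) went from 2.13 (rESC) to 0.441 (R_NSCP1), which is -2.05 on the log2 scale, and its rESC-only peak of pileup 10 lay upstream from 7300152 to 7300400. On chromosome 8, the start of a minus-strand lncRNA from 94668519 to 94670154 lay inside an rESC-only peak from 94670021 to 94670269, the only start so placed, with a pileup of 9 and no R_NSCP1 peak within 118921 bp of the peak. Its FPKM was 1.63 for rESC against 0.636 for R_NSCP1, or -1.23 on the log2 scale. The lncRNA at chr6:79627848-79630974 went from 4.41 to 1.93, with a peak from 79628679 to 79629018. The lncRNAs within 2-fold were the longer transcript on chromosome 1, one at chr3:90317828-90319939 (6.95 and 5.09) and one at chr7:160093803-160095529 (2.48 and 2.57).

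Within 10000 bp of a start, the 5 lncRNAs with the largest differences were all listed at 0 in R_NSCP1. Their rESC levels were an FPKM of 9.03 at chr6:137377597-137383601, 8.33 at chr3:159145731-159152019, 7.01 at chr16:58906797-59051275, 5.91 at chr16:57607056-57611141 and 5.67 at chr16:74150126-74154468. The order rests on values of 0 and on the pseudocount. Differences towards R_NSCP1 followed directly after these 5, led by the minus-strand lncRNA at chr18:47660605-47662027, named after its value was seen and listed at 0 for rESC and at 4.86 for R_NSCP1. A value of 0 was listed for rESC in 11 and for R_NSCP1 in 5 of the 118, and in 148 and 66 of the 1395. The start on chromosome 6 also had a shared rESC peak 74 bp away and an R_NSCP1 peak 21 bp away, so the rESC-only peak 1941 bp from it was not the nearest peak.

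Overlapping transcripts did not always share the direction. A lncRNA starting 12 bp upstream of the one at 58906797 of chromosome 16 had an FPKM of 0.986 for rESC and 3.55 for R_NSCP1. At 74150126, transcripts from 74149673 to 74150758 and to 74155627 were also higher in rESC, with 5.14 against 0.817 and 8.80 against 1.01. Those from 74150217 to 74154468 and to 74155627 were higher in R_NSCP1, with 0.706 against 2.15 and 0 against 1.58.

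The lncRNA with the highest level near an rESC-only peak, named after its value was seen, lay at chr11:107148749-107152626 (plus strand). Its FPKM was 167 for rESC against 29.6 for R_NSCP1, or -2.49 on the log2 scale. The same rESC-only peak, from 107139884 to 107140132 with a pileup of 12, lay within 10000 bp of 2 further lncRNA starts, and both of those lncRNAs were also lower in R_NSCP1. Their FPKM values were 2.46 and 0.243 for the one from 107141202 to 107144153, and 3.13 and 0.923 for the one from 107146353 to 107147974. These 3 lncRNAs share 1 peak and are not independent instances.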

How the data were processed

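Per the file headers, the authors called the peaks of either MeDIP library with MACS 2.1.0.20150731 and no control. The q-value cutoff was 0.01, the genome size 3e+09 bp, and 1 tag was kept per position. BWA 0.7.7 and TopHat2 2.0.11 are named in the submitters' processing notes. The deposited pileup is a signal of stacked fragments that is not scaled between libraries. The deposited fold enrichment is a ratio to the background of the same library, and the deposited −log10 q comes from the same background. The deposited lncRNA levels are FPKM of unknown depth, and the p-value beside them in the authors' deposited table was not used. The sources used here do not give a genome build. A common build was assumed for peaks and lncRNAs, as 52 of 63 sequence names of the lncRNAs also name peaks. No genome of that build was used, so no sequence or gene is given.

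Distances are gaps between the nearest bases, with 0 for overlap. Chromosome ends were taken as the largest peak end in either list. The implied background is the pileup plus 1, divided by the fold, minus 1. lncRNAs needed an FPKM of at least 0.1 in either library, and 0.1 was added before logs. Shares carry 95% Wilson intervals. With 1 library per group no test was made. Distance and cluster steps were tested on simulated data. Software was scipy 1.17.1, numpy 2.4.6 and pandas 2.3.3 under Python 3.11.15, with figures from matplotlib 3.10.9.

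The members, lists and divisions were chosen with earlier results of these data known. The text names the 5 peaks highest in fold, pileup, length and distance to R_NSCP1, the 3 on either side of the 500 bp limit, the 5 windows and 3 clusters with the most peaks, lncRNAs within 1000 bp of a peak and the 5 with the largest difference within 10000 bp. Other items are said to have been chosen after their values were seen. Alternatives were other distances, margins, list lengths, windows, gaps, thresholds and pseudocounts.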

Additional observations from a re-analysis of the deposited data

How the results depend on the processing

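The number of rESC-only peaks, 11816, stayed within 1.5 times of itself when the R_NSCP1 distance was set to no overlap (12428), 1000 bp (11488) or 5000 bp (9845), the end margin to 10 Mb (10675), the length limit was dropped (11816), or the R_NSCP1 list was held to its strongest peaks, as many as in the rESC list (16972). It fell to 7745 when rESC peaks needed a −log10 q of 5 or more, and to 420 at 10 or more. The share of interior rESC peaks ranged from 5.64% at a −log10 q of 10 or more to 48.5% with the R_NSCP1 list held. With that list held, a setting added after the data were seen for window counts, rESC-only peaks were the more numerous in 1326 windows and R_NSCP1-only peaks in 875, against 51 and 2326 as deposited. That setting counts rESC peaks whose R_NSCP1 partner was cut as rESC-only. The share in clusters was 2.12% with gaps of up to 5000 bp and 38.3% with 50000 bp. Members near a lncRNA start numbered 9 at 1000 bp and 789 at 100000 bp. At 100000 bp, 216 lncRNAs were higher in rESC by 2-fold or more and 231 in R_NSCP1, where 42 and 39 were at 10000 bp, by construction of the wider distance. As shares of the lncRNAs near a member these were 32.8% and 35.1%. Other pseudocounts and no FPKM filter left 33 to 43 and 30 to 40. Medians of length, pileup, fold and distance at a −log10 q of 5 or more, and window densities at 500000 and 2000000 bp, stayed within 1.5 times. No paired analysis was possible because each group has 1 library. The depth of 8690541 and 9071243 tags limits how low a peak could be called, and a place without a call is not shown to be unmethylated.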
